A study of Mus musculus with 9 samples.

Results

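The forkhead genes encode transcription factors that share a winged-helix DNA-binding domain. They were taken as all protein-coding genes on chromosomes 1 to 19 of GENCODE M21 (mm10) whose symbol is Fox, a lower-case letter from a to s, and digits. The rule gave 41 of 20807 genes, with 138 annotated transcription start sites (TSSs). Accessibility was measured by ATAC-seq, where a transposase (Tn5) cuts open DNA and tags it for sequencing. The starting material was primary mouse embryonic fibroblasts (MEFs) below passage 8, from WT embryos or from embryos null for Anp32e, a chaperone that removes the histone variant H2A.Z from chromatin. The 9 libraries fell into 4 groups: 3 WT, 3 Anp32e-/-, 1 Anp32e-/- with non-targeting (NT) siRNA, and 2 Anp32e-/- with siRNAs against H2A.Z. Both siRNA groups were Anp32e-/- and were collected 48 h after transfection with Lipofectamine RNAiMax and a pool of siRNAs. The peak lists cannot show whether H2A.Z was depleted or Anp32e was deleted. A further replicate of the knockdown experiment had been left out of the study as over-tagmented, and which siRNA it carried is not given in the sources used here.

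Libraries of a group were pooled into 1 peak list before deposition, so no value below has a replicate spread and no difference between lists was tested. Intervals given below are 95% intervals that cover counting error only. The libraries may differ by culture, passage or library preparation, and these cannot be told apart from the group. In bulk cells, fewer cells with an open site and less accessibility per cell cannot be told apart either.

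The lists held 84040 (WT), 82567 (Anp32e-/-), 89272 (NT siRNA) and 108409 (H2A.Z siRNA) peaks on the nuclear chromosomes. Their genome-wide background was 8.85, 5.12, 3.88 and 17.82 fragments, so by this measure the NT siRNA list was the shallowest and the H2A.Z siRNA list the deepest. Fold enrichment is the summit pileup over local background, and each peak was ranked by it within its own list as a percentile, with 100 as the strongest. Fibroblast markers had a TSS peak for 11 of 12 genes in every list (Lum had none). Markers of other cells had TSS peaks too, in the order above at 4, 4, 6 and 6 of 6 epithelial, 4, 3, 4 and 4 of 5 endothelial, 2, 2, 2 and 3 of 4 blood, 1, 2, 2 and 3 of 4 neural and 3, 2, 2 and 2 of 4 endoderm genes. Among them Ptprc (blood), Hnf4a (endoderm), Neurod1 (neural) and Tie1 (endothelial) had none in any list. The part of other cell types in the results was not tested.

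Forkhead factors divide into subfamilies with distinct work. FoxA factors are pioneer factors that open compacted chromatin in endoderm. FoxC, FoxD, FoxF and FoxL factors pattern mesenchyme and its derivatives. FoxO factors are held out of the nucleus by insulin and AKT signalling and drive stress-resistance and cell-cycle arrest genes, FoxK factors bind many of the same sites and repress autophagy genes, FoxP factors are mostly repressors, and FoxM1 drives mitotic genes. Fibroblasts are mesenchymal cells, in which several FoxC, FoxF, FoxO and FoxP genes are known to be used.

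To show the letters behind the peaks, windows of 100 bp on either side of a summit were read from mm10. The first set are summits away from protein-coding TSSs that hold the forkhead core TGTTTAC (or its reverse complement GTAAACA), the letters most forkhead factors prefer. Of 138 such WT peaks in the forkhead loci, 7 (5.07%, Wilson interval 2.48 to 10.1%) held the core, against 3.10% of 64246 WT peaks of this kind on chromosomes 1 to 19. The 4 windows below, in each of which the summit lay in an intron of the gene, are on the plus strand with the core in capitals. They lie at chr5:142440442-142440642, chr6:15285171-15285371, chr10:42251311-42251511 and chr3:52297639-52297839 in that order, and none overlaps an annotated exon.

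Foxk1 gene body: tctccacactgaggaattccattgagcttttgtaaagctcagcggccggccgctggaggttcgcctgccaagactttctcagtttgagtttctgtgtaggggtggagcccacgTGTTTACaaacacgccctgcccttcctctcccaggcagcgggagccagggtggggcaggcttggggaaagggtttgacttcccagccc
Foxp2 gene body: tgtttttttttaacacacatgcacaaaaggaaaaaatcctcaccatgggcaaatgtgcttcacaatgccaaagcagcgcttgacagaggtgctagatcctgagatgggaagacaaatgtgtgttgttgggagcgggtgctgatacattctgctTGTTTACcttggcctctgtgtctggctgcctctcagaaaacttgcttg
Foxo3 gene body: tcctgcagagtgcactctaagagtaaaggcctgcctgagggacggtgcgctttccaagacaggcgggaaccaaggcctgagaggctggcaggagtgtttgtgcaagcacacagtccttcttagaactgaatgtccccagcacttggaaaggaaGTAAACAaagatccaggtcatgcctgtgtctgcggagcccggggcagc
Foxo1 gene body: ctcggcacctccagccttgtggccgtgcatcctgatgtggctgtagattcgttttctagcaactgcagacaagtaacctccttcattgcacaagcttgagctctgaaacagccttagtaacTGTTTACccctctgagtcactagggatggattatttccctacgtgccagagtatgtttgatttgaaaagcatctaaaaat

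The Foxk1 intron site was called in all 4 lists at nearly the same rank: percentile 88.2 (WT), 87.5 (Anp32e-/-), 88.2 (NT siRNA) and 86.4 (H2A.Z siRNA). The Foxp2 site ranked at 56.8, 40.8, 17.6 and 31.7 in the same order, and the Foxo3 site at 26.5, 37.1, 53.0 and 49.1. The Foxo1 site was called in the WT (percentile 25.7) and H2A.Z siRNA (19.9) lists alone. A match is a description of the letters and not a site bound by a factor.

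At the TSSs the core was in none of the 34 WT windows of the forkhead genes. A count of 0 in 34 allows a share of up to 8.82% (3 counts of 34), and 1.24% of all 14277 WT TSS windows held it, so a difference was not detectable at this number. The other motifs searched, on both strands and none containing another, were SP1 (GGGCGG), NF-Y (CCAAT) and AP-1 (TGANTCA). SP1 letters were in 21 of 34 windows (61.8%, interval 45.0 to 76.1%) against 45.8% of all TSS windows, NF-Y in 20.6% against 25.7%, and AP-1 in 5.88% against 6.03%. The median GC content was 68.4% against 64.2%, and the median ratio of observed to expected CpG 0.890 against 0.803. Away from TSSs, AP-1 letters were in 18.8% (13.2 to 26.2%) of WT peaks in the forkhead loci and in 33.1% of all such peaks. The shares were 20.5% against 36.1% in Anp32e-/-, 18.9% against 33.9% with NT siRNA and 24.1% against 36.5% with H2A.Z siRNA. AP-1 letters were thus rarer in the forkhead loci in each list. SP1 letters went the other way: 7.97% against 4.63% (WT), 9.93% against 5.00% (Anp32e-/-), 8.28% against 5.10% (NT siRNA) and 8.80% against 5.03% (H2A.Z siRNA). Of 259 merged sites in the loci outside forkhead TSSs, 109 were in all 4 lists, so the lists are not separate support. The intervals take peaks of the same locus as independent.

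The 4 windows below show the range at TSSs, on the strand of the gene with SP1, NF-Y and AP-1 matches in capitals: the gene with the highest mean rank over the 4 lists (Foxk2, chr11:121259721-121259921), the FoxO gene with the most SP1 matches (Foxo6, chr4:120287851-120288051), the mural-cell gene Foxs1 (chr2:152933769-152933969) and the gene with the lowest mean rank among those called in all 4 lists (Foxa2, chr2:148045034-148045234). The first 3 lie upstream of the gene and the Foxa2 window lies in its intron.

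Foxk2: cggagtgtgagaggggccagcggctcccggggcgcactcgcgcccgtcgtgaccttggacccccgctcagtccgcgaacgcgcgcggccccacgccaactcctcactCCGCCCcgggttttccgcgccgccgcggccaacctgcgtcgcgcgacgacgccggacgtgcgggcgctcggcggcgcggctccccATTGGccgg
Foxo6: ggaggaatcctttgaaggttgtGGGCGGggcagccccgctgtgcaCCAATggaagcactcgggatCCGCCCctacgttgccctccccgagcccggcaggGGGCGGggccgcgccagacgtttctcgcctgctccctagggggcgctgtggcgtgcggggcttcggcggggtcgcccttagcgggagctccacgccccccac
Foxs1: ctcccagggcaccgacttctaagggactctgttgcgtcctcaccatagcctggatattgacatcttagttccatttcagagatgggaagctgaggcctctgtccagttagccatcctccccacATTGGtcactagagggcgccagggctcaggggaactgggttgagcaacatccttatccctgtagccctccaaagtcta
Foxa2: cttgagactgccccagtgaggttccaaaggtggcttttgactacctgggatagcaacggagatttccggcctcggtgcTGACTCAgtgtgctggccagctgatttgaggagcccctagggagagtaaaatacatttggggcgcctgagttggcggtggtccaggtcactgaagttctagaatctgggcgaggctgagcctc

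The Foxk2 window held 38 CpG dinucleotides (GC 78.1%) and the Foxs1 window 3 (54.2%). The Foxa2 window held 6 CpG dinucleotides and an AP-1 match.

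The summit of the strongest TSS peak lay in the gene's own coding sequence for 9 of 34 forkhead genes in WT (26.5%, interval 14.6 to 43.1%), against 12.3% of all genes with a TSS peak. These were Foxb1, Foxb2, Foxd3, Foxd4, Foxe3, Foxf2, Foxi2, Foxk1 and Foxl2, all but Foxk1 from lineage-restricted or mesenchymal groups. Coding forkhead boxes resemble each other, and the part of reads shared between paralogs in these peaks was not tested.

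A peak lay within 1 kb of a TSS for 34 of the 41 forkhead genes in WT (82.9%, interval 68.7 to 91.5%), 33 in Anp32e-/-, 33 with NT siRNA and 32 with H2A.Z siRNA. Over all genes the shares were 68.6% (WT), 68.1% (Anp32e-/-), 68.3% (NT siRNA) and 69.9% (H2A.Z siRNA). The lower bound of the WT share lies just above the share of all genes, and those of the other lists lie below it. The same 32 genes had a TSS peak in all 4 lists, and the calls of 2 genes differed. Foxi2, an epithelial and placodal factor, had a peak in WT alone, of 30 fragments at percentile 32.0, and its nearest peak in the other lists was over 54 kb away. Foxb1, a neural factor, had peaks of 29 (WT), 17 (Anp32e-/-) and 14 (NT siRNA) fragments, at percentiles 22.3, 11.3 and 7.0, and none in the H2A.Z siRNA list, where the nearest peak was 106341 bp away. Foxi2 and Foxb1 were thus among the weakest calls of the family in every list that held them.

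The differences in presence rest on counts of 0 or 1 among 41 genes. For Anp32e-/- against WT, 1 forkhead gene had lost its peak (background 1.91% of all genes) and 0 had gained one (1.38%). For H2A.Z siRNA against NT siRNA, 1 had lost it (0.505%) and 0 had gained one (2.09%). For NT siRNA against Anp32e-/-, 0 had gained one (2.10%) and 0 had lost one (1.86%). The Wilson interval of 1 in 41 genes (0.432 to 12.6%) held 1.91% and 0.505%, and 0 in 41 allows a share of up to 7.32% (3 counts of 41), so no difference from all genes was detectable.

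The 7 genes without a TSS peak in any list were Foxh1 (a Nodal-signalling partner of Smads), Foxi1 (ear and kidney epithelium), Foxl1 (gut mesenchyme), Foxn1 (thymic epithelium), Foxn4 (retina and spinal cord), Foxq1 (epithelium) and Foxr1. Foxl1 had its nearest peak 1740 bp (WT), 1740 bp (Anp32e-/-), 1758 bp (NT siRNA) and 1556 bp (H2A.Z siRNA) from the TSS, upstream, where a site ranked at percentiles 80.3, 85.8, 84.4 and 84.7. Foxq1 held a wide peak of 2224, 2208, 2249 and 2422 bp in its exon, centred 2941 bp from its 5' end, at percentiles 75.5, 75.2, 66.6 and 77.0. The nearest peak to Foxh1 lay 1278, 1274, 1248 and 1168 bp away, at an upstream site with percentiles of 62.6, 68.4, 75.6 and 77.8. These 3 genes therefore had an open site just outside the 1 kb window in every list. For Foxi1 no peak lay in the gene or within 10 kb of it in any list, and the nearest was at least 205440 bp away.

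**Figure D1:**
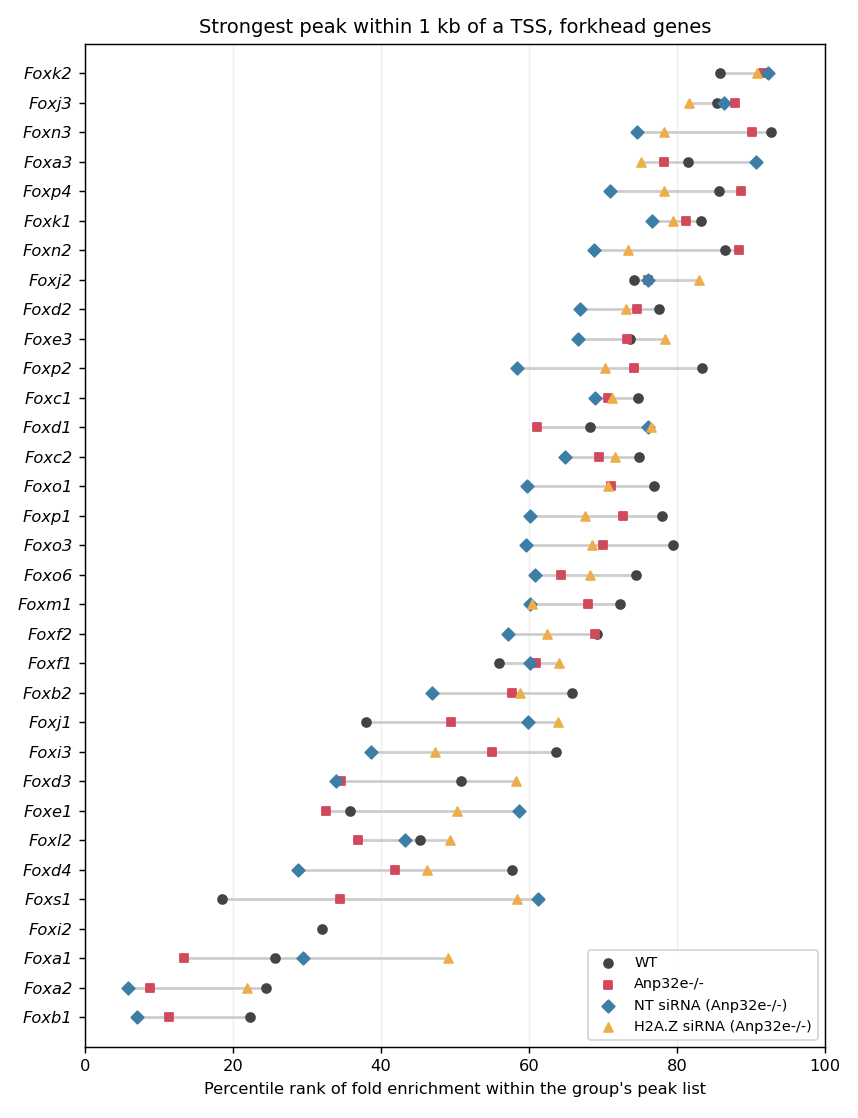
Percentile rank of fold enrichment of the strongest peak within 1 kb of a TSS, for 33 of the 34 forkhead genes with one. The x axis is the percentile within a group's own peak list and each marker is 1 pooled list, with a grey line from the lowest to the highest value of a gene. Foxk2 has the highest mean (90.2, from 85.8 to 92.3), and Foxa2 and Foxb1 have values down to 5.8 and 7.0.

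The highest mean percentile over the 4 lists was that of Foxk2 (90.2), followed by the Foxj3 (85.3) and Foxn3 (83.9) genes of broadly expressed factors, then Foxa3 (81.4) and the repressor Foxp4 (80.9). The Foxa3 summit lay 140 bp from the start of Sympk, an RNA-processing gene, in WT and at -699 bp from the start of Foxa3 itself, so that peak cannot be assigned to Foxa3 alone. Likewise the Foxj3 summit lay 61 bp from the start of Frg2f1. The summit was nearer to a TSS of the forkhead gene than to one of any other annotated gene for 27 (WT), 27 (Anp32e-/-), 25 (NT siRNA) and 26 (H2A.Z siRNA) genes. The lowest among genes called in all 4 lists were Foxa2 (15.2), Foxa1 (29.4), Foxs1 (43.1), Foxd4 (43.6) and Foxl2 (43.7), of which Foxl2 marks the ovary. In WT the median percentile was 73.0 for forkhead genes and 81.5 for all genes with a TSS peak. It was 69.0 against 79.9 in Anp32e-/-, 60.1 against 79.4 with NT siRNA and 68.4 against 81.4 with H2A.Z siRNA. Forkhead TSS peaks thus stood lower than those of all genes in each list, most of all with NT siRNA. Ranked by −log10 p instead of by fold, the medians of the forkhead genes were 79.5 (WT), 78.3 (Anp32e-/-), 80.3 (NT siRNA) and 84.2 (H2A.Z siRNA). No −log10 p medians of all genes are given here, so these values cannot be set against the fold medians above. The local background under these peaks was 2.18, 2.89, 4.09 and 4.67 times the genome-wide value, against 2.01, 2.53, 4.67 and 4.27 for all genes.

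The FoxK pair ranked high in each list. Foxk2 ranked at 85.8 (WT), 91.6 (Anp32e-/-), 92.3 (NT siRNA) and 90.9 (H2A.Z siRNA), with counting intervals that overlap throughout. Foxk1 ranked at 83.3, 81.3, 76.7 and 79.5. Among the other broadly expressed genes, Foxj2 ranked at 74.2, 76.1, 76.1 and 83.0, and Foxn2, a winged-helix factor with a peak wider than 2 kb, at 86.4, 88.4, 68.8 and 73.4. Foxm1, which drives mitotic genes, ranked at 72.3, 68.0, 60.1 and 60.4. Its strongest peak lay in an intron in 3 lists and upstream of the gene with NT siRNA. The NT siRNA summit lay 9 bp from a start of Rhno1, so that peak cannot be assigned to Foxm1 alone.

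By fold rank the FoxO genes were alike in standing highest in WT and lowest with NT siRNA. This was not particular to them. Foxa2, Foxb2, Foxc1, Foxc2, Foxd2, Foxd4, Foxf2, Foxi3, Foxk1, Foxm1, Foxn3, Foxp1 and Foxp2 also stood highest in WT and lowest with NT siRNA. Foxo3 ranked at 79.4 (WT), 70.0 (Anp32e-/-), 59.7 (NT siRNA) and 68.5 (H2A.Z siRNA). Its counting intervals were 75 to 83.6, 64.8 to 74.6, 55.9 to 63.3 and 67.1 to 70.0, so they did not overlap between Anp32e-/- and WT or between the siRNA lists. Foxo1 ranked at 76.9, 71.0, 59.7 and 70.7, with intervals of 53.3 to 65.7 for NT siRNA and 68.3 to 73.0 for H2A.Z siRNA that do not overlap. Foxo6, the brain-enriched member, ranked at 74.4, 64.4, 60.8 and 68.3. Its intervals overlapped between Anp32e-/- and WT and between the siRNA lists, and did not overlap between WT (68.0 to 80.4) and NT siRNA (54.4 to 66.8). The Foxo3 summit lay at -1199 (WT), -1037 (Anp32e-/-), -1122 (NT siRNA) and -1199 bp (H2A.Z siRNA) from its 5' end, in a peak that reached into the 1 kb window. It held 353, 402, 794 and 3503 fragments, the most of any forkhead gene in each list.

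The order depends on the scale. By pileup over genome-wide background the FoxO genes stood lowest in WT, with multiples of 39.9 (WT), 78.5 (Anp32e-/-), 204.6 (NT siRNA) and 196.6 (H2A.Z siRNA) for Foxo3, 16.4, 25.6, 72.9 and 73.1 for Foxo1, and 22.1, 32.2, 71.4 and 61.8 for Foxo6. Ranked by −log10 p, Foxo3 was 0.947 points higher in Anp32e-/- than in WT rather than lower by 9.47 points, and its H2A.Z siRNA value was higher than NT siRNA by 1.05 rather than 8.87 points. With lists of equal length (the top 82567 peaks) its H2A.Z siRNA difference was 2.30 points, while that of Foxo1 was 5.11 instead of 11.0.

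Genes that act around FoxO factors are given for comparison. The 18 genes acting upstream of FoxO factors (receptors, PI3 kinase, AKT, 14-3-3 proteins and others) had TSS peaks in every list. In Anp32e-/- 16 of the 18 ranked lower than in WT, with a median difference of -4.15 points against -1.44 over all genes, of which 8749 of 13879 ranked lower. Pik3r1, the p85 regulatory subunit, ranked at 87.6 (WT) and 74.3 (Anp32e-/-), and the adaptor gene Irs1 at 67.6 and 55.5. Both were among the 4 upstream genes that were lower by 10 points or more in fold rank. The 2 upstream genes that ranked higher were Pdpk1 (79.9 and 86.0) and Stk4 (83.2 and 83.7). Of the 15 genes known as FoxO targets, 14 had TSS peaks (Trim63, a muscle ubiquitin ligase, had none), and 12 of these ranked lower in Anp32e-/-, with a median of -4.47. The antioxidant genes Cat (98.5 and 99.2) and Sod2 (98.9 and 98.0) stayed at the top of both lists. The 7 FoxM1 targets had a median difference of -0.708 points. These lists were chosen with earlier results of these data known.

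The FoxP genes are long, with many annotated starts, and for Foxp1 and Foxp2 the strongest TSS peak was not the same site in each list. Foxp4 ranked at 85.7 (WT), 88.6 (Anp32e-/-), 70.9 (NT siRNA) and 78.2 (H2A.Z siRNA). Foxp2, a gene of speech and lung development, ranked at 83.3, 74.2, 58.4 and 70.3. Foxp1, which has 22 annotated TSSs, ranked at 78.0, 72.7, 60.2 and 67.5, from different sites in WT and Anp32e-/-. Likewise Foxn3 ranked at 92.8, 90.1, 74.6 and 78.2, from sites that differed between the siRNA lists, so its change between them is not that of a single peak.

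The mesenchyme genes lay in the middle of the range. Foxc1, needed for mesoderm and skull development, ranked at 74.7 (WT), 70.7 (Anp32e-/-), 68.9 (NT siRNA) and 71.3 (H2A.Z siRNA), and its relative Foxc2, a lymphatic and mesenchymal factor, at 74.9, 69.5, 64.8 and 71.6. Foxf2, a gut and palate mesenchyme factor, ranked at 69.1, 69.0, 57.1 and 62.4, and Foxf1, the lung and gut counterpart, at 55.9, 60.9, 60.1 and 64.1. The counting intervals of these 4 genes overlap within both contrasts. Foxd1, a stromal factor of the kidney, ranked at 68.2, 61.0, 76.0 and 76.6, and Foxd2 at 77.5, 74.6, 66.9 and 73.0. Foxs1 stood below these genes in the WT and Anp32e-/- lists and near Foxf1 and Foxf2 in the siRNA lists, at 18.5, 34.4, 61.2 and 58.4, with 43, 40, 114 and 394 fragments. Its intervals overlap between WT and Anp32e-/- (0.48 to 41.6 and 12.5 to 53.0).

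The pioneer-factor genes of endoderm, Foxa1 and Foxa2, were called in every list but weakly. Foxa1 ranked at 25.7 (WT), 13.3 (Anp32e-/-), 29.4 (NT siRNA) and 49.0 (H2A.Z siRNA), from 57, 36, 24 and 116 fragments. Foxa2, which marks definitive endoderm and floor plate, ranked at 24.5, 8.7, 5.8 and 21.9, from 52, 43, 34 and 130 fragments. Its strongest peaks in the siRNA lists were at different sites. Foxa3, whose peak lay next to the Sympk start, stood far above both at 81.5, 78.3, 90.7 and 75.1, with counting intervals of 85.9 to 94.6 for NT siRNA and 72.5 to 77.7 for H2A.Z siRNA that did not overlap.

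Foxd3, a neural crest factor, and its paralog Foxd4, which both had their summit in the coding sequence, stood higher in WT than in Anp32e-/-. Foxd3 ranked at 50.8 (WT), 34.6 (Anp32e-/-), 33.8 (NT siRNA) and 58.3 (H2A.Z siRNA), from 61, 36, 28 and 145 fragments. Foxd4 ranked at 57.7, 41.8, 28.8 and 46.2, from 63, 54, 31 and 119 fragments. Both stood higher with H2A.Z siRNA than with NT siRNA, and their counting intervals overlapped in each contrast. Other restricted genes were the lens factor Foxe3 at 73.6, 73.2, 66.6 and 78.3, Foxl2 at 45.2, 36.9, 43.3 and 49.3, and the thyroid factor Foxe1 at 35.8, 32.6, 58.6 and 50.3. Foxj1, which switches on motile cilia genes, ranked at 37.9, 49.4, 59.9 and 64.0, lowest in WT. Among broadly expressed genes Foxj3 ranked at 85.3, 87.9, 86.4 and 81.6, lowest with H2A.Z siRNA.

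**Figure D2:**
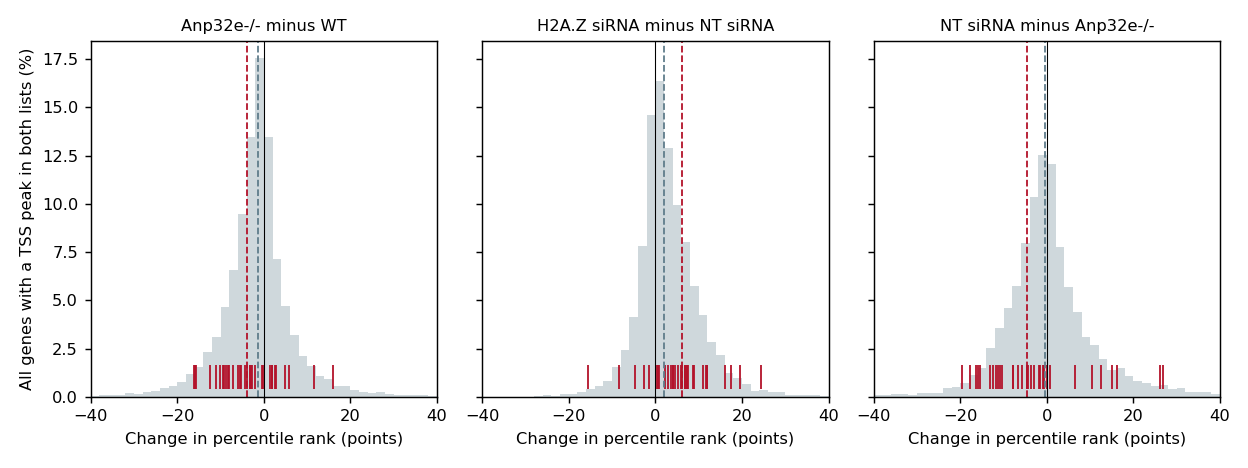
Change in percentile rank between lists for each contrast, in percentile points. Grey bars are the share of all genes with a TSS peak in both lists, red ticks are forkhead genes and dashed lines are the medians (grey for all genes, red for forkhead genes), with the x axis cut at 40 points. The forkhead medians lie at -3.98, 6.10 and -4.60 points, each further from 0 than the median of all genes. The interval over genes of the Anp32e-/- minus WT median holds that of all genes, and those of the other contrasts do not.

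In Anp32e-/- against WT, 24 of 33 forkhead genes ranked lower and 9 higher. The median was -3.98 points against -1.44 over 13879 genes, of which 8749 ranked lower. The interval over genes of the forkhead median (-8.06 to -0.427) holds the median of all genes. Ranked by −log10 p the forkhead median was -0.663. Higher by 10 points or more were 2 of 33 genes, Foxs1 (15.9) and the ciliogenesis factor Foxj1 (11.5), against 6.36% of all genes. The next largest rise in rank was that of Foxk2 (5.75). Lower by 10 points or more were 6 of 33 genes (18.2%, interval 8.61 to 34.4%), against 11.3% of all genes. These were Foxd3 (-16.2), Foxd4 (-15.9), Foxa2 (-15.8), Foxa1 (-12.4), Foxb1 (-11.0) and Foxo6 (-10.1), which apart from Foxo6 are weakly called lineage genes with 17 to 54 fragments in the Anp32e-/- list. Their counting intervals are wide: for Foxd3, 33.0 to 64.5 in WT and 12.2 to 53.9 in Anp32e-/-. Counting intervals did not overlap for 1 gene that was lower (Foxo3, 2.97% of all genes) and for 0 genes that were higher (0.425%).

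The pileup at the summit over genome-wide background gave another view. It was higher in Anp32e-/- than in WT at all 33 forkhead genes, with a median log2 ratio of 0.62, and over all genes it was higher at 13198 of 13879, with a median of 0.64. Forkhead genes thus matched the median of all genes on this scale. Foxp4 (1.18) and Foxn2 (1.12) had the largest log2 ratios, and Foxb1 (0.02), Foxd3 (0.03) and Foxa1 (0.13) the smallest.

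In H2A.Z siRNA against NT siRNA the ranks went the other way, with 27 of 32 forkhead genes higher and 5 lower and a median of 6.10 points against 2.07 over 14112 genes, of which 9451 ranked higher. Ranked by −log10 p the forkhead median was 2.89. Higher by 10 points or more were 8 of 32 genes (25%, interval 13.3 to 42.1%) against 14.0% of all genes. The 3 largest were Foxd3 (24.4), Foxa1 (19.6) and Foxd4 (17.4), all weakly called. Foxa2 (16.1), Foxp2 (11.9), Foxb2 (11.9), the lens factor Foxe3 (11.8) and Foxo1 (11.0) followed. The Foxa2 change was between different sites. At its intron site, called in both lists, the peaks ranked at 5.81 (NT siRNA) and 12.2 (H2A.Z siRNA). Lower by 10 points or more was 1 gene, Foxa3 (-15.5), against 2.56%. The Foxa3 change was -5.27 ranked by −log10 p and -22.5 with lists of equal length. The next lower values were those of the thyroid factor Foxe1 (-8.34) and Foxj3 (-4.81). Counting intervals did not overlap for 2 genes that were higher (Foxo1 and Foxo3, 12.7% of all genes) and 1 that was lower (Foxa3, 1.95%).

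The direction of this contrast depends on the length of the list, since the H2A.Z siRNA list was the longer (108409 against 89272 peaks). With lists of equal length the median of the forkhead genes was -1.22 points. No median change over all genes is given for lists of equal length or for ranks by −log10 p. Those forkhead medians therefore cannot be set against all genes.

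Where the mean percentile of both lists was below 50, the median change was -11.0 points for 9 forkhead genes between Anp32e-/- and WT, against -1.84 for all genes at that level. From 50 to 75 it was -5.42 against -3.36, and from 75 upward -2.02 against -1.04. Between the siRNA lists the 6 forkhead genes below 50 all ranked higher with H2A.Z siRNA, with a median of 16.7 points against 6.96, while the 7 from 75 upward had a median of 0.525 against 0.932. In both contrasts the forkhead genes with the lowest peaks had the largest median change. Over all genes this also held between the siRNA lists, where the medians from 50 to 75 were 6.20 (forkhead) and 5.00 (all genes). Between Anp32e-/- and WT the largest median over all genes was at 50 to 75. Between NT siRNA and Anp32e-/- the lowest forkhead peaks did not have the largest change. The forkhead medians there were -0.795 (below 50), -7.19 (50 to 75) and -3.04 (75 upward), against 1.33, -1.47 and -0.383 over all genes.

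On the scale of pileup over genome-wide background the siRNA lists differed the other way. It was lower with H2A.Z siRNA at 28 of 32 genes, with a median log2 ratio of -0.28, and over all genes at 12272 of 14112, with a median of -0.31.

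Between the NT siRNA list and the Anp32e-/- list, both from null cells, 25 of 33 forkhead genes ranked lower with NT siRNA, with a median of -4.60 points against -0.42 over 13781 genes, of which 7328 ranked lower. Ranked by −log10 p the forkhead median was -0.17, and with lists of equal length it was -7.56. Higher by 10 points or more were 6 of 33 (13.8% of all genes), led by Foxs1 (26.8) and Foxe1 (26.0), and lower were 11 of 33 (33.3%, interval 19.8 to 50.4%, against 12.0%), led by Foxn2 (-19.6), Foxp4 (-17.7) and the placodal factor Foxi3 (-16.3). The 2 lists differ by transfection and by 1 library against 3, which cannot be told apart. On the scale of pileup over background the direction was the opposite, with 28 of 33 forkhead genes higher with NT siRNA and a median log2 ratio of 0.81, and over all genes 12910 of 13781 higher with a median of 1.11.

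**Figure D3:**
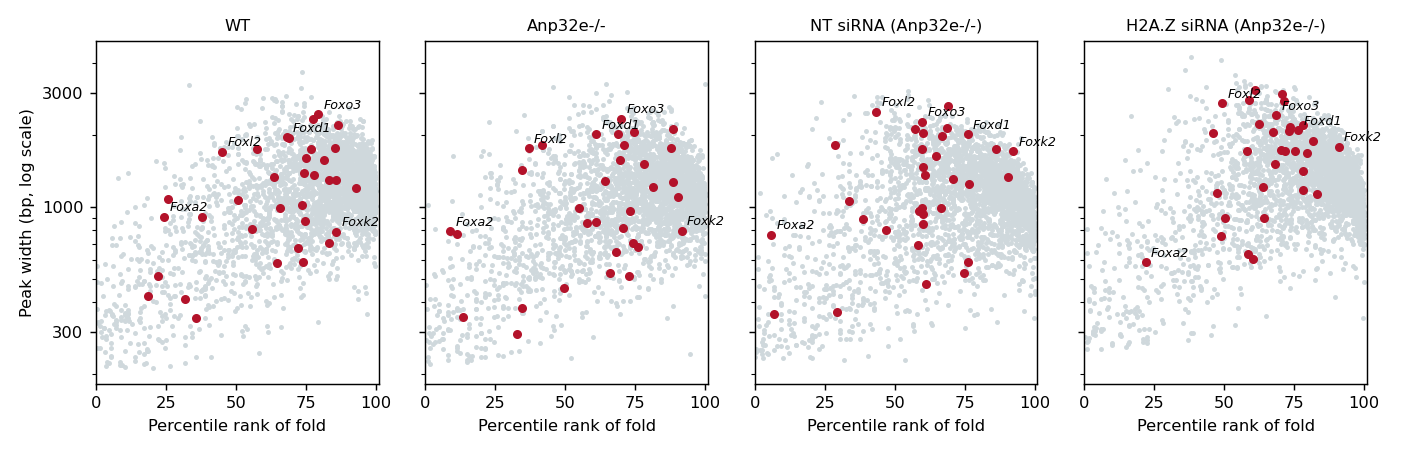
Width of the strongest TSS peak (bp, log scale) against its percentile rank of fold, in each list. Red points are forkhead genes and grey points are a random sample of all genes with a TSS peak. Foxo3 lies between 2270 and 2441 bp and Foxl2 between 1702 and 2713 bp, both near the top of each panel.

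The median width of forkhead TSS peaks was 1139 bp in WT against 1151 bp for all genes with a TSS peak, 988 bp against 1117 bp in Anp32e-/-, 1303 bp against 1085 bp with NT siRNA and 1726 bp against 1297 bp with H2A.Z siRNA. The intervals over genes of both siRNA medians (933 to 1743 bp and 1207 to 2094 bp) hold the medians of all genes. Among the widest 5% of a list's peaks were 11 of 34 forkhead genes in WT (23.7% of all genes with a TSS peak), 11 of 33 in Anp32e-/- (23.4%), 14 of 33 with NT siRNA (42.4%, interval 27.2 to 59.2%, against 23.9%) and 20 of 32 with H2A.Z siRNA (62.5%, interval 45.3 to 77.1%, against 23.4%). The intervals of both siRNA shares lie above the shares of all genes, although genes of a list are not replicates. With lists of equal length they were 14 of 31 with NT siRNA (45.2%, interval 29.2 to 62.2%, against 22.8%) and 15 of 31 with H2A.Z siRNA (48.4%, interval 32.0 to 65.2%, against 19.7%).

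Some of the wide peaks stood at middling ranks. Foxd4 spanned 1742 bp in WT, 1821 bp in Anp32e-/-, 1820 bp with NT siRNA and 2040 bp with H2A.Z siRNA, at width percentiles of 97.9, 98.6, 98.7 and 98.2 but fold percentiles no higher than 57.7. Foxl2 spanned 1702, 1763, 2498 and 2713 bp. Foxd1 (1959 to 2094 bp), Foxd2 (1977 to 2334 bp), Foxf2 (1950 to 2220 bp) and Foxo3 (2270 to 2441 bp) were wide in every list.

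The strongest peak of other genes was wider in the siRNA lists. Foxc1 spanned 870 bp (WT) and 816 bp (Anp32e-/-) but 2643 bp (NT siRNA) and 2768 bp (H2A.Z siRNA), and Foxk2 786 and 795 bp but 1707 and 1784 bp. Foxb2 spanned 991, 857, 797 and 2795 bp, so that peak passed 2 kb with H2A.Z siRNA only. Narrower widths went with split calls: at the Foxc1 and Foxk2 TSS sites the WT and Anp32e-/- lists called 2 peaks each and both siRNA lists 1, and at Foxb2 the H2A.Z siRNA list called 1 and the others 2. With all peaks within 1 kb together the median widths of the forkhead genes were 1588 (WT), 1563 (Anp32e-/-), 1707 (NT siRNA) and 2089 bp (H2A.Z siRNA). The median log2 width ratio was 0.13 for H2A.Z siRNA over NT siRNA (0.19 over all genes), -0.06 for Anp32e-/- over WT (-0.03) and 0.01 for NT siRNA over Anp32e-/- (-0.03). The H2A.Z siRNA list had the highest background in fragments, and the part of depth in these widths was not tested.

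**Figure D4:**
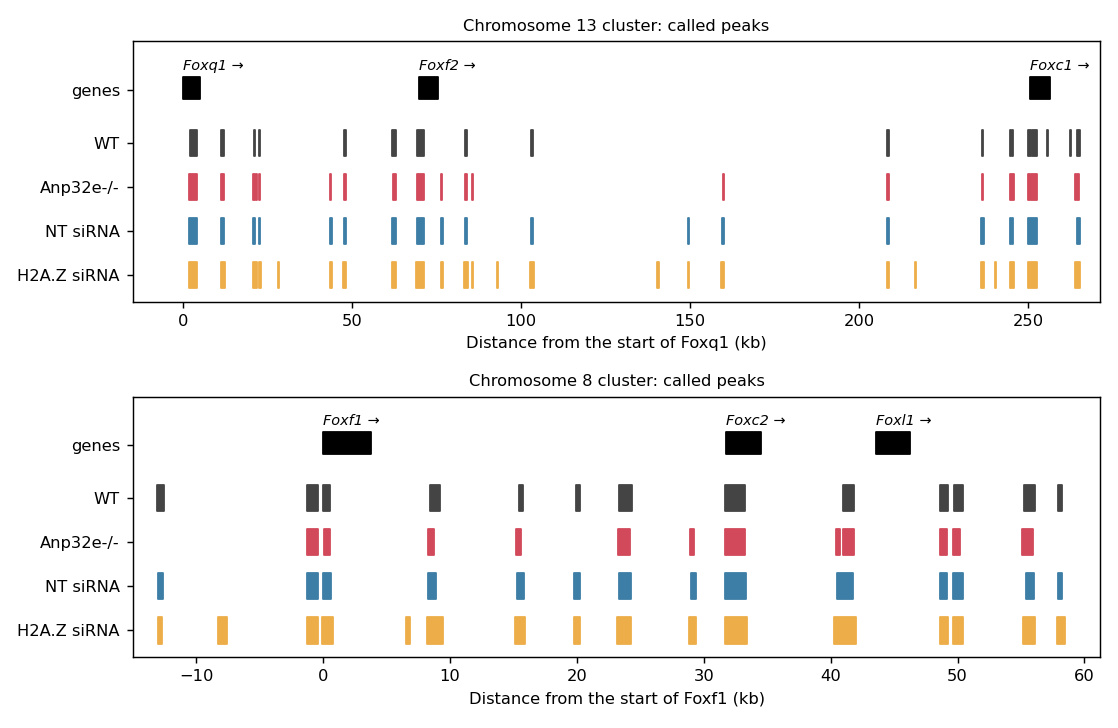
Called peaks (coloured blocks) of the 4 lists around the linked forkhead genes on chromosome 13 (top) and chromosome 8 (bottom), with distance from the first gene in kb on the x axis. Black bars are the genes. Most blocks stand in the same place in all rows, and the rows of the H2A.Z siRNA list hold additional narrow blocks.

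The linked clusters showed where open sites lie between the genes. In the chromosome 8 cluster (Foxf1, Foxc2 and Foxl1), a site centred at -8020 bp from the start of Foxc2 had percentiles of 86.8 (WT), 88.2 (Anp32e-/-), 85.3 (NT siRNA) and 87.6 (H2A.Z siRNA). These stood above the Foxc2 TSS peak in each list. A start of the protein-coding gene Mthfsd lay 8154 bp upstream of the Foxc2 WT summit. The site lay next to that start, so it cannot be assigned to the forkhead genes alone. In the chromosome 13 cluster (Foxq1, Foxf2 and Foxc1), a site at -7270 bp from Foxf2 ranked at 36.7, 47.1, 85.4 and 81.8, so it stood higher in both siRNA lists than in the others. A site 6793 bp from the 5' end of Foxf2, past the gene, was called in Anp32e-/- (49.0), NT siRNA (72.1) and H2A.Z siRNA (74.0) and not in WT, whereas 2 weak sites at Foxc1 (58 and 47 fragments) were called in WT alone. All 4 sites of the Foxl1 locus and both sites of the Foxq1 locus were called in all 4 lists.

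Across all forkhead genes with 10 kb on either side (3.01 Mb merged), the lists held 208 (WT), 221 (Anp32e-/-), 236 (NT siRNA) and 278 (H2A.Z siRNA) peaks, and with lists of equal length 208, 221, 213 and 200. As deposited this is 69.0, 73.3, 78.3 and 92.2 peaks per Mb, against 33.2, 32.7, 35.4 and 43.0 per Mb on chromosomes 1 to 19, a comparison of gene loci with the whole length of the chromosomes. Merging overlapping peaks gave 313 sites, of which 152 (48.6%, interval 43.1 to 54.1%) were in all 4 lists, against 45.9% of 125387 sites on chromosomes 1 to 19. Of the 54 sites at a TSS 43 (79.6%) were in all 4 lists, and of the 152 intron sites 42.8% were. No shares by position over all sites are given here, so these shares by position cannot be set against a background. In Anp32e-/- and not WT were 40 sites (12.8% against 10.9%), and in WT and not Anp32e-/- 28 (8.95% against 12.2%). In H2A.Z siRNA and not NT siRNA were 65 sites (20.8% against 20.7%), and in NT siRNA and not H2A.Z siRNA 7 (2.24% against 3.64%). With lists of equal length these were 25 and 26 sites. The interval of each share (9.53 to 16.9, 6.26 to 12.6, 16.6 to 25.6 and 1.09 to 4.54%) holds the share of all sites.

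**Figure D5:**
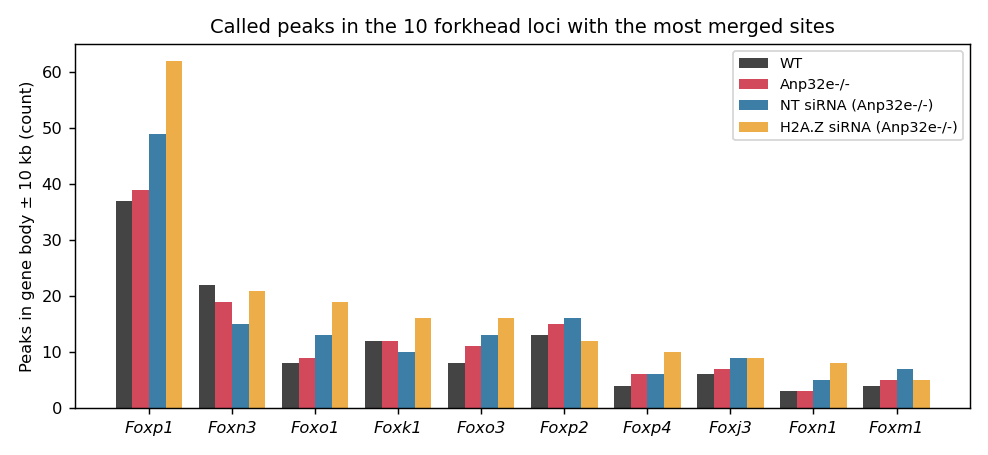
Number of called peaks in the gene body and 10 kb on either side, for the 10 forkhead loci with the most merged sites. Bars start at 0 and colours are the 4 pooled lists. Foxp1 holds the most peaks in each list, from 37 in WT to 62 with H2A.Z siRNA.

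Foxp1, the longest locus, held 37 (WT), 39 (Anp32e-/-), 49 (NT siRNA) and 62 (H2A.Z siRNA) peaks at 65 sites, of which 26 were in all 4 lists and 17 were with H2A.Z siRNA and not NT siRNA. Foxn3 held 22, 19, 15 and 21 peaks and Foxp2 13, 15, 16 and 12. Foxo1 held 8, 9, 13 and 19 peaks and Foxo3 8, 11, 13 and 16. Foxp4 held 4, 6, 6 and 10 peaks and Foxk1 12, 12, 10 and 16. Intron sites of Foxp2 (420378 bp from its 5' end, percentiles 98.2, 95.6, 95.1 and 96.3) and Foxp1 (304837 bp, 91.7, 95.8, 91.2 and 91.4) stood above the strongest TSS peak of the same gene in each list. Foxn4 (1, 1, 2 and 2 peaks) and Foxr1 (1, 0, 2 and 3) were among the poorest loci.

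Of the 19 Foxo1 sites, 6 were in all 4 lists, and 7 with H2A.Z siRNA and not NT siRNA. Of the 17 Foxo3 sites, 7 were in all 4 lists, and 2 of these are given here after their values were seen. The site 45303 bp from the 5' end ranked at 67.6 (WT), 78.0 (Anp32e-/-), 87.7 (NT siRNA) and 87.1 (H2A.Z siRNA), and the site at 31718 bp at 66.2, 73.0, 77.3 and 88.6. By fold rank both sites stood lowest in WT. The site at 57490 bp, also in all 4 lists, ranked at 71.5, 65.1, 74.8 and 79.5, lowest in Anp32e-/-.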

How the data were processed

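ATAC-seq libraries were prepared by tagmentation with Nextera DNA Flex reagents. The authors mapped read pairs to mm10 (Bowtie2 2.3.4.1), discarded PCR duplicates (Picard 2.18.23) and pooled the libraries of each group for peak calling (MACS2 2.1.4, paired-end fragments). In each deposited list the fold enrichment is a ratio of pileup over local background (1 added to both), the p-value column is on a −log10 scale, the integer score is the whole part of the q-value's −log10 after a shift of 1 decimal place and the last column is the summit's offset in bp. Both siRNA lists had been filtered to nuclear chromosomes before deposition. All lists were restricted to chromosomes 1 to 19, X and Y, and regions of artefact signal were not masked.

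Fold and −log10 p were solved for the whole-fragment pileup of each summit (within 0.05 of a whole number in 100% of peaks), which was checked on simulated data. A gene was called where a peak lay within 1 kb of any of its annotated TSSs (GENCODE M21), and the highest-ranked such peak stood for it. Ranks were taken within a list, and counting intervals used exact Poisson bounds of the pileup at fixed local background. Shares carry Wilson intervals, and a count of 0 the limit that 3 counts give. Windows were read from GRCm38 (mm10) with pysam 0.24.0, and other steps used Python 3.11.15, pandas 2.3.3, NumPy 2.4.6 and SciPy 1.17.1. By the rule for named genes, every forkhead gene but 1, which is not reported by name here, is named, and values in all lists are given for genes called in 1 to 3 lists, for the 5 highest and 5 lowest mean ranks, for the 3 largest changes each way between Anp32e-/- and WT and between the siRNA lists, and for the FoxO, FoxP, FoxK and linked genes, and for some others chosen after their values were seen. No tests could be run, since each group is 1 pooled list. The members and lists were chosen with earlier results of these data known. Alternatives changed the peak cutoff, number of peaks, TSS definition, ranking, flank and overlap.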

Additional observations from a re-analysis of the deposited data

How the results depend on the processing

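No paired analysis was possible because the libraries of a group had been pooled into 1 list, and leaving out each replicate was not run for the same reason. Of 280 alternative values, 213 stayed within 1.5 times the main value (counts), the interval over genes (medians) or the counting interval (single genes), both of which are wide, 61 moved and 6 reversed. The 213 include 3 median changes on another scale, log2 pileup over background less the median of all genes, which kept only their sign. The cause was not tested unless the setting itself gives it.

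The largest shifts came with the top 20000 peaks of each list by fold, which leaves few forkhead genes: 12 (WT), 8 (Anp32e-/-), 3 (NT siRNA) and 3 (H2A.Z siRNA) with a TSS peak. Of these 1 was in Anp32e-/- and not WT, 5 in WT and not Anp32e-/-, 1 in H2A.Z siRNA and not NT siRNA, and 5 in Anp32e-/- and not NT siRNA. The median percentiles were 29.9, 51.0, 58.3 and 7.88, and the median rank change reversed to 9.20 points (Anp32e-/- minus WT), -27.2 (H2A.Z siRNA minus NT siRNA) and 0.57 (NT siRNA minus Anp32e-/-). The log2 width ratio of NT siRNA over Anp32e-/- reversed to -0.0058. The loci held 39, 32, 29 and 28 peaks at 53 sites, with 18 in all lists, 18 in 1 list, 7 in Anp32e-/- and not WT, 14 the other way, 3 in H2A.Z siRNA and not NT siRNA, and 4 the other way.

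With lists of equal length (82567 peaks), 0 forkhead genes were in NT siRNA and not H2A.Z siRNA and 2 in Anp32e-/- and not NT siRNA. The median percentiles were 56.96 (NT siRNA) and 58.7 (H2A.Z siRNA), the rank change of H2A.Z siRNA minus NT siRNA reversed to -1.22, and 25 locus sites were in H2A.Z siRNA and not NT siRNA and 26 the other way. With a −log10 q of 5 or more, 0 genes were in NT siRNA and not H2A.Z siRNA, the NT siRNA median was 56.1, 25 locus sites were in Anp32e-/- and not WT, and 4 in NT siRNA and not H2A.Z siRNA.

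Ranked by −log10 p, the median percentiles were 79.5, 78.3, 80.3 and 84.2, the median changes were -0.663 (Anp32e-/- minus WT), 2.89 (H2A.Z siRNA minus NT siRNA) and -0.17 (NT siRNA minus Anp32e-/-), and that of Foxo3 in Anp32e-/- minus WT reversed to 0.947. A 500 bp window gave 1 gene in Anp32e-/- and not WT, 2 in WT and not Anp32e-/-, 0 in NT siRNA and not H2A.Z siRNA, and 1 each way between NT siRNA and Anp32e-/-. The gene 5' end alone gave 1 in NT siRNA and not Anp32e-/-. With the deeper list thinned to the same genome-wide background, which does not equalise the summits, 0.167 genes were expected in Anp32e-/- and not WT and 0.0942 in NT siRNA and not Anp32e-/-. All peaks within 1 kb together spanned medians of 1588 (WT), 1563 (Anp32e-/-), 1707 (NT siRNA) and 2089 bp (H2A.Z siRNA). A 50 kb flank gave 380, 370, 403 and 490 peaks, no flank gave 46 sites in 1 list and 4 in NT siRNA and not H2A.Z siRNA, and a reciprocal overlap of 50% left 64 sites in Anp32e-/- and not WT, 50 the other way, and 48 in NT siRNA and not H2A.Z siRNA.

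Chosen after seeing the data were windows of the other lists, summits nearer to the forkhead gene (27, 27, 25 and 26 genes), overlapping strongest peaks (median changes of -3.61, 6.20 and -3.57 points), the width class, the split by rank and the values of single genes. Few fragments limit the ranks of weak calls: the counting interval of Foxa2 in WT, from 52 fragments, was 2.87 to 44.1.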
